A study of Mus musculus with 40 samples.

Results

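The genes described here are those of the subunits of RNA polymerase I, II and III (Pol I, Pol II and Pol III), measured by RNA-Seq in primary mouse embryonic fibroblasts (MEFs). They were chosen by name, as every row of the count table whose symbol begins with Polr1, Polr2 or Polr3 and ends in a subunit letter from a to m, with or without an added l. This gave 28 of 24062 genes. By the polymerase they serve, 3 belong to Pol I, 2 to Pol I and Pol III, 8 to Pol II, 10 to Pol III and 5 to all 3 enzymes. A few subunits that the table lists under other symbols (Cd3eap, Znrd1, Twistnb and Crcp) are not among the 28 and are given at the end.

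MEFs had been isolated at 13.5 days post coitum and grown to passage 3. They came from embryos of a mixed C57BL/6J-129P2OlaHsd background and carried both copies (WT), a single copy (Het) or no intact copy (KO) of Sall2, which encodes a zinc finger transcription factor. Each culture was left untreated (control) or given doxorubicin, a topoisomerase II poison that breaks DNA, at 1 µM for 16 h. There were 5 control libraries, from 1 WT embryo, 1 Het embryo and KO embryos 1, 2 and 3, and 4 doxorubicin libraries, from the WT embryo, the Het embryo and KO embryos 1 and 2. WT and Het are therefore 1 embryo each, so that genotype and embryo cannot be told apart for them.

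Pol I transcribes the ribosomal RNA precursor, Pol II the messenger RNAs, and Pol III the transfer RNAs, 5S ribosomal RNA and other short RNAs. Each enzyme is built around a pair of large catalytic subunits that are paralogs across the enzymes, an assembly platform of alpha-like subunits, a stalk, and small subunits common to all of them. The largest Pol II subunit, Polr2a, carries the C-terminal domain of heptad repeats whose phosphorylation accompanies initiation and elongation. Doxorubicin intercalates into DNA, and ribosomal RNA synthesis is known to be sensitive to it.

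The libraries held between 15560728 and 24122414 counts. The subunit genes had between 54 and 24709 counts in a library, and 3 of them fell under 100 counts in some library. Sall2 itself stood at 37 CPM (counts scaled to library size with TMM) in the WT control, 24.3 in the Het control and 19.1 to 23.8 in the KO controls. With doxorubicin these levels were 9.35, 8.34 and 3.72 to 4.24 CPM, so reads of the gene remained in KO. Het control, KO embryo 3 control and Het doxorubicin stood apart from the other 6 libraries. Their log2 CPM correlated with those of the WT and other KO libraries of the same treatment at 0.923 to 0.934 across 14883 genes, which are not independent replicates, against at least 0.988 among those libraries. The sum of 10 fibroblast markers was 16600 to 23500 CPM in these 3 libraries, against 77300 to 94400 in the other controls and 47600 to 59700 in the other doxorubicin libraries. That of 7 macrophage markers was 462 to 726 CPM against 95.1 to 171, and that of 10 interferon response genes was 1520 to 2380 CPM against 44.9 to 417. The sums of 5 epithelial, 5 endothelial, 5 neural and glial and 5 muscle markers reached at most 18.5, 90.7, 905 and 220 CPM in any library, and no marker of these lists was at 0 in every library. In bulk RNA, fewer cells of a type and less RNA per cell cannot be told apart. Values without these 3 libraries are given for counts of calls with doxorubicin over all subunit genes and over the lists of factors at the end. They are also given beside a part of the named genes. The changes of other named genes moved with these libraries too, such as that of the Pol I factor Taf1d (log2 fold change -2.05, and -1.45 without them). The part of these libraries in the results was not tested otherwise.

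Doxorubicin was compared with control over the 9 libraries, with genotype as a term in the model. Of the 28 subunit genes, 28 had enough counts to be tested, and 15 differed at an FDR under 0.01 by edgeR's quasi-likelihood test, where 6266 of 14883 genes (42.1%) did. Polr2a, Polr2l, Polr1e and Polr2f rose (14.3% of the subunit genes, against 21.9% of all genes), and 11 subunit genes fell (39.3%, against 20.2%). With the libraries scaled to the Polr2a count, where the median over all genes was -2.16, the log2 fold changes of Polr2l, Polr1e and Polr2f were below 0 and did not pass (FDR 0.198, 0.0184 and 0.0119). The fallen genes were led by the catalytic pair of Pol I, Polr1b and Polr1a, followed by Polr2e, Polr3b, Polr3a, Polr2j, Polr2i, Polr3c, Polr2m, Polr2c and Polr3f. The median log2 fold change was -0.24 over the subunit genes and -0.02 over all genes tested. All 15 called genes moved the same way in 4 of 4 embryos. The ranges of the 2 treatments did not overlap for 4 subunit genes that were higher with doxorubicin, where 24.4% of all genes did so, and for 13 that were lower, where 23% did so.

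**Figure D1:**
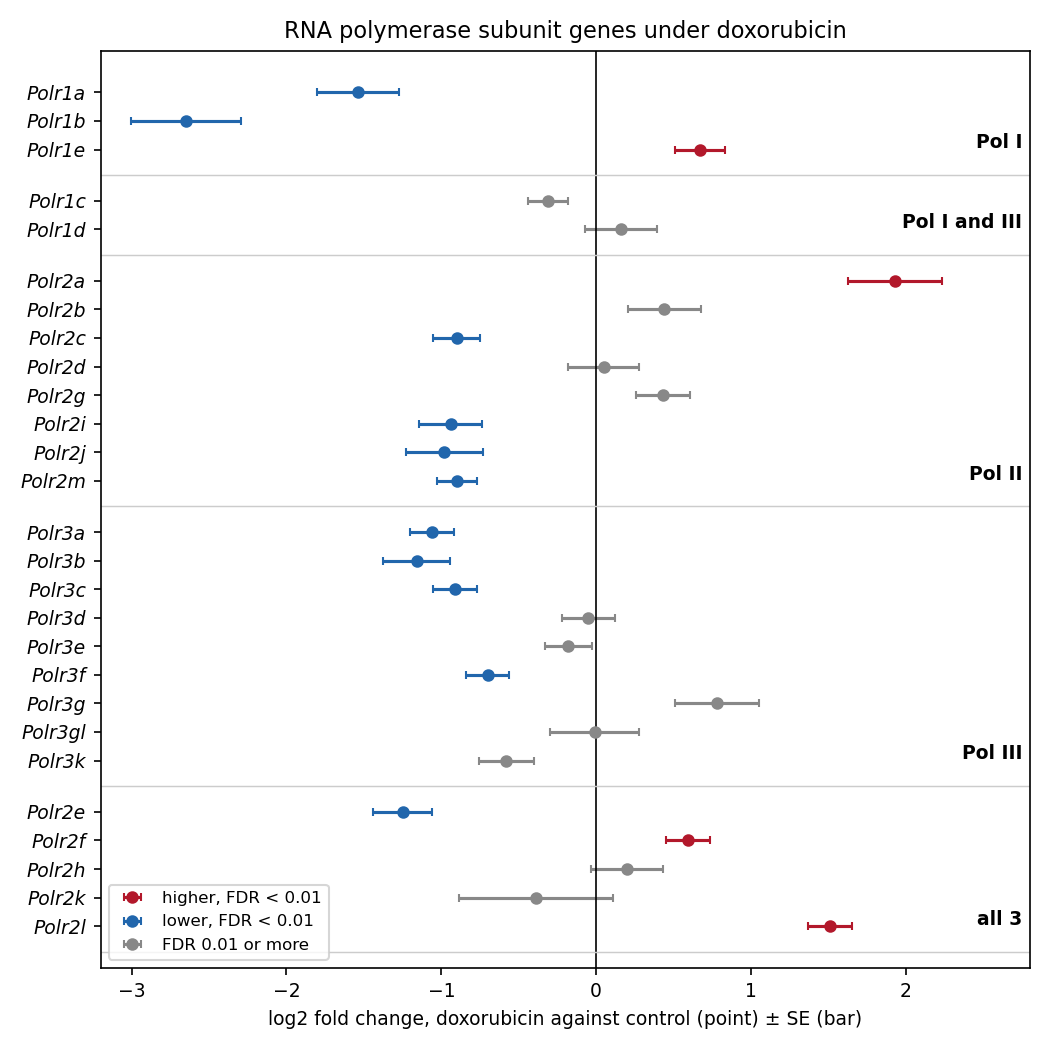
Log2 fold change of 27 of the 28 subunit genes, doxorubicin (n = 4 libraries) against control (n = 5), as a point with its standard error (bar), grouped by polymerase and coloured by call. Pol I holds both the largest fall (Polr1b, -2.65) and a gene that rose (Polr1e), and Polr2a at 1.93 stands at the other end. The values use TMM scaling, and Polr1e is below 0, without passing, when scaled to Polr2a.

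Without the 3 libraries that stood apart (WT and KO embryos 1 and 2 in both treatments), 9922 of 14629 genes (67.8%) passed, and 8 subunit genes were higher (35.4% of all genes) and 12 lower (32.4% of all genes). The added calls were Polr1d, Polr2g, Polr2h and Polr3g among the higher and Polr3k among the lower. With the embryo as a block, over the 4 embryos that had both treatments, 59.9% of the genes passed (30.9% higher and 29% lower), and the calls of Polr2g and Polr3g were added to the 15. By polymerase, in the fit of all 9 libraries, where 21.9% of all genes rose and 20.2% fell, Pol I had 1 rise and 2 falls among its 3 genes, Pol II 1 rise and 4 falls among 8, Pol III no rise and 4 falls among 10, the subunits of Pol I and Pol III no call among 2, and the common subunits 2 rises and 1 fall among 5.

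The Pol II genes went in both directions, and of its catalytic pair only Polr2a passed in the fit of all 9 libraries. Polr2a (chr11:69733997-69758637, mm10, minus strand), the largest subunit, had 367, 363 and 353 CPM in control WT and KO embryos 1 and 2, and 150 and 135 CPM in control Het and KO embryo 3. With doxorubicin the WT library had 1230 CPM, those of KO embryos 1 and 2 had 1220 and 1010 CPM, and the Het library had 595 CPM. Each doxorubicin library was above each control library. The level in Het was lower than in WT and KO embryos 1 and 2 in both treatments, and in control KO embryo 3 was lower still. The rise was 3.8-fold, a log2 fold change of 1.93 (SE 0.305, FDR 0.000867), and the change within single embryos lay between 1.52 and 1.99 on the log2 scale. Of the 14883 genes, 1982 rose more. The log2 fold change was 1.67 (FDR 6.67e-07) without the 3 libraries that stood apart, and 1.75 (FDR 1.07e-05) with the embryo as a block. In the KO libraries alone the call of Polr2a was lost (1.98, FDR 0.0284), where 1 subunit gene rose and 1 fell.

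Polr2b, the other large catalytic subunit of Pol II, had 112, 120 and 113 CPM in control WT and KO embryos 1 and 2 and 57.7 and 53.1 in control Het and KO embryo 3. With doxorubicin it had 143, 129 and 133 CPM for WT and KO embryos 1 and 2, and the Het library had 81.6, so the treatments overlapped. Its log2 fold change of 0.44 (SE 0.234, FDR 0.138) did not pass, although it was higher in 4 of 4 embryos, and neither did that of 0.23 (FDR 0.0488) without the 3 libraries that stood apart. With RUVg, the normalization named in the paper's methods, Polr2b passed as higher (0.71, FDR 7.61e-05).

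**Figure D2:**
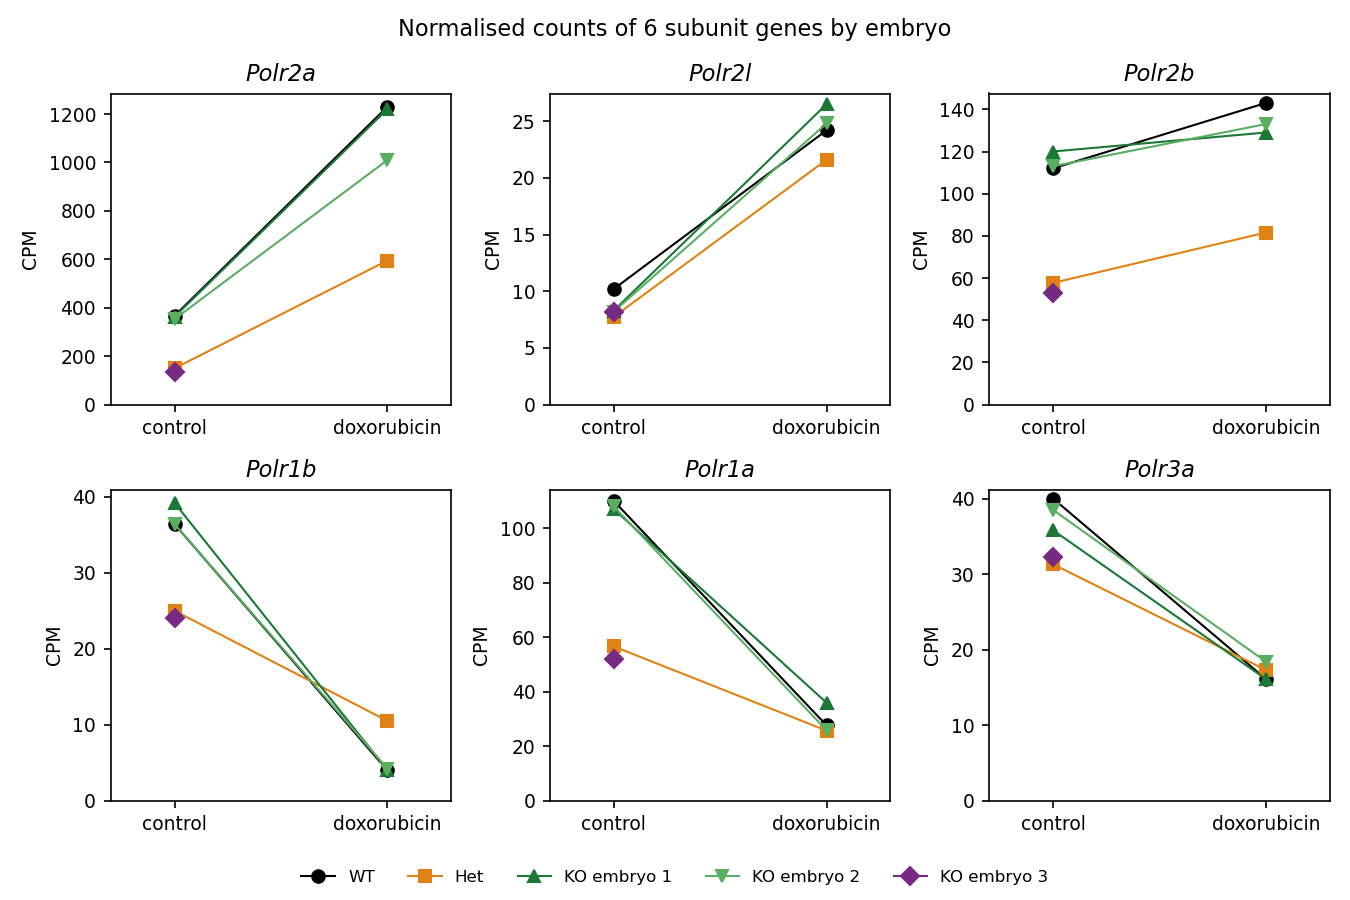
CPM (vertical axis, from 0) of 6 subunit genes in control and doxorubicin libraries, with a line joining the libraries of the same embryo and KO embryo 3 as a single control point. With TMM scaling Polr2a and Polr2l are higher in each doxorubicin library (Polr2l is lower, without passing, when scaled to Polr2a), Polr1b, Polr1a and Polr3a are lower, and the Het library with doxorubicin has 10.5 CPM of Polr1b where the others have 3.98 to 4.22.

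The alpha-like assembly subunits of Pol II fell. Polr2c, which is alpha-like, had 18.8, 20, 19.5, 18.1 and 23.5 CPM in control WT, Het and KO embryos 1, 2 and 3, and 9.25, 11.4, 11.2 and 10.9 CPM with doxorubicin in WT, Het and KO embryos 1 and 2. Its log2 fold change was -0.90 (SE 0.153, FDR 0.00129), and the groups did not overlap, but the call was lost without WT control (FDR 0.0105) and with library totals in place of TMM (FDR 0.014). Polr2j, its alpha-like partner, had 22.4, 25.7 and 25.4 CPM in control WT and KO embryos 1 and 2 but 45.4 and 51.9 in control Het and KO embryo 3, and 14.5 to 19.7 CPM with doxorubicin. Its log2 fold change was -0.98 (SE 0.251, FDR 0.00992), close to the threshold, and -0.62 (FDR 0.000455) over the 6 libraries without those that stood apart. The call of Polr2j was lost without WT control, Het control or any 1 of the doxorubicin libraries, with an FDR of up to 0.0444, and also with upper quartile scaling (FDR 0.0348), with library totals (FDR 0.0509) and with library sizes that leave out Rn45s. Polr2i, the zinc ribbon subunit that serves RNA cleavage, went from 10.9 to 16.1 CPM in control to 5.67 to 8.48 CPM with doxorubicin (log2 fold change -0.94, SE 0.201, FDR 0.00405), and its call was lost without either library of WT, either of Het or the doxorubicin library of KO embryo 2, with an FDR of up to 0.0219, and with upper quartile scaling (FDR 0.0148) and library totals (FDR 0.0221).

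Polr2m, or Gdown1, a subunit found on only part of Pol II, was at like levels in the 3 genotypes. It had 253, 225, 244, 243 and 238 CPM in control WT, Het and KO embryos 1, 2 and 3, and 130, 117, 137 and 130 CPM with doxorubicin in WT, Het and KO embryos 1 and 2. The log2 fold change was -0.90 (SE 0.13, FDR 0.000533), with -0.83 to -0.96 in single embryos. The stalk subunits did not pass. Polr2d was at 33.6 to 73.9 CPM in control and 46.8 to 57.7 with doxorubicin (log2 fold change 0.05, FDR 0.879, and 0.34, FDR 0.026, without the 3 libraries that stood apart). Polr2g was at 48 to 78.3 CPM in control and 72.5 to 96.2 with doxorubicin, higher in 4 of 4 embryos (log2 fold change 0.43, SE 0.176, FDR 0.063), and it passed with the embryo as a block (0.56, FDR 0.00287), without KO embryo 3 control (FDR 0.00143) and without the 3 libraries that stood apart (0.65, FDR 0.00017).

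In its methods the study expresses quantitative PCR values relative to Polr2a, so the primers of this reference gene are shown, with the base that differs from the mouse reference transcript in capitals.
RNApol_F: actgtgCggaactccatcaa
RNApol_R: agccagGttctggaactcaa
Both sites lie in exon 16 of 29 of the transcript Polr2a-201 of GENCODE, the forward at chr11:69742479-69742498 and the reverse at chr11:69742409-69742428 (GRCm38, gene on the minus strand), and bound a product of 90 bases. Each 20-base primer had 1 mismatch to its site, C7A for the forward and G7A for the reverse, with positions counted from 1 at the primer's 5′ end and the primer's base first. Neither had an exact match among the 141767 transcripts of the annotation. When the libraries were scaled to the Polr2a count instead of with TMM, the median log2 fold change of all genes with doxorubicin was -2.16, no subunit gene was higher and 19 were lower. Whether the primers' readout moved as the counts did was not tested.

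Of the subunits common to all polymerases, Polr2l and Polr2f rose (both were lower when scaled to Polr2a, without passing) and Polr2e fell. Polr2l (chr7:141471860-141475132, mm10, minus strand), a small zinc-binding subunit of the assembly platform, had 10.2, 7.74, 8.3, 8.21 and 8.2 CPM in control WT, Het and KO embryos 1, 2 and 3. With doxorubicin it had 24.2, 21.6, 26.5 and 24.8 CPM in WT, Het and KO embryos 1 and 2. The control libraries that stood apart differed by -0.15 on the log2 scale from the others, and no library of one treatment reached the range of the other. The rise was 2.86-fold (log2 1.51, SE 0.145, FDR 7.6e-05), the smallest p of the set.

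Polr2f was at 26.5 to 37.4 CPM in control and 41.6 to 50 with doxorubicin (log2 fold change 0.59, SE 0.142, FDR 0.00761). This call was lost when any 1 of 8 of the 9 libraries was left out, with an FDR of up to 0.0396, and it was kept without KO embryo 3 control (FDR 0.000528). It was also lost with library totals (FDR 0.0529) and with every gene of at least 1 count (FDR 0.0168). Polr2e, which contacts the DNA ahead of the enzyme, had 74.4, 95.6, 74.8, 70 and 115 CPM in control WT, Het and KO embryos 1, 2 and 3, and 34.1, 32.3, 41.7 and 34.9 CPM with doxorubicin in WT, Het and KO embryos 1 and 2. It fell in each embryo (log2 fold change -1.25, SE 0.189, FDR 0.000672, and -1, FDR 8.87e-06, without the 3 libraries that stood apart). Polr2h (16.8 to 36 CPM in control, 22.1 to 32 with doxorubicin) and Polr2k (2.98 to 14.3 and 4.45 to 8.14 CPM) did not pass, with log2 fold changes of 0.20 and -0.39. Without the 3 libraries that stood apart Polr2h rose (0.52, FDR 0.00204) and Polr2k was at 0.46 (FDR 0.0446). With RUVg Polr2k passed as lower. For Polr2k the direction depended on the libraries, as it was higher with doxorubicin in WT and KO embryos 1 and 2 and lower in Het. Whether a related pseudogene shares its reads was not tested.

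Pol I held the largest change of the set. Polr1b (chr2:129100995-129126594, mm10, plus strand), a catalytic subunit, had 36.4, 39.2 and 36.4 CPM in control WT and KO embryos 1 and 2, and 25 and 24.1 in control Het and KO embryo 3. With doxorubicin it had 3.98, 4.02 and 4.22 CPM in WT and KO embryos 1 and 2, and 10.5 in Het. Every doxorubicin library was under every control library, and Het had the smallest distance between them. The fall was 6.3-fold, a log2 fold change of -2.65 (SE 0.354, FDR 0.000358), and 165 of the 14883 genes had a larger fall. Without the 3 libraries that stood apart the log2 fold change was -3.2 (FDR 3.2e-08).

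Polr1a (chr6:71909053-71984935, mm10, plus strand), the largest Pol I subunit, had 110, 107 and 108 CPM in control WT and KO embryos 1 and 2 and 56.6 and 51.9 in control Het and KO embryo 3. With doxorubicin it had 27.6, 35.9 and 25.8 CPM in WT and KO embryos 1 and 2 and 25.7 in Het, where the control levels had been unequal and the treated levels were close. The log2 fold change was -1.54 (SE 0.265, FDR 0.0013), and -1.87 (FDR 4.4e-07) without the 3 libraries that stood apart. Polr1e, of the dimer that aids initiation and elongation, went the other way (except when scaled to Polr2a, where it did not pass), from 17.8 to 27.1 CPM in control to 31.6 to 40.7 CPM with doxorubicin (log2 fold change 0.67, SE 0.162, FDR 0.00757). Its call was also lost when any 1 of 8 of the 9 libraries was left out, with an FDR of up to 0.0482, and kept without KO embryo 3 control (FDR 0.000641). It was lost as well with library totals (FDR 0.045) and with every gene of at least 1 count (FDR 0.013). The span of Fbxo10 overlaps that of Polr1e on the opposite strand, and the strand setting of the counting is not given. Reads from the overlap may thus have been added to the count of Polr1e or lost from it. Whether exons of the genes overlap was not tested. The same holds for Polr2b (Igfbp7), Polr2c (Dok4), Polr2f (1700088E04Rik), Polr2h (Clcn2), Polr2i (Tbcb), Polr2j (Lrwd1) and Polr3gl (Gm16253).

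Polr1c and Polr1d, the alpha-like subunits of Pol I and Pol III, did not pass. Polr1c was lower in 4 of 4 embryos by a small amount, at 38.5 to 47.7 CPM in control and 31.4 to 34.9 with doxorubicin (log2 fold change -0.31, SE 0.128, FDR 0.0692). With RUVg it passed (-0.36, FDR 0.0065). Polr1d was at 74.2 to 149 CPM in control and 98.3 to 130 with doxorubicin (0.16, FDR 0.571), and it passed without the 3 libraries that stood apart (0.46, FDR 0.000584) and without KO embryo 3 control alone (FDR 0.00863). Rn45s, the product of Pol I left after depletion of ribosomal RNA, ranged from 461 to 37700 CPM in control and from 900 to 20300 CPM with doxorubicin, so that the treatments overlapped.

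Of the Pol III genes, the catalytic pair and part of the initiation trimer fell and the rest did not pass. Polr3a (chr14:24448696-24487058, mm10, minus strand), the largest subunit, had 40, 31.3, 35.8, 38.5 and 32.3 CPM in control WT, Het and KO embryos 1, 2 and 3, and 16.1, 17.3, 16.1 and 18.4 CPM with doxorubicin in WT, Het and KO embryos 1 and 2. The log2 fold change was -1.06 (SE 0.144, FDR 0.000383), the same way in each embryo and with narrow ranges in both treatments. Polr3b, the other large catalytic subunit, had 35.3, 32 and 34.3 CPM in control WT and KO embryos 1 and 2 and 19 and 18.9 in control Het and KO embryo 3. With doxorubicin it had 8.85 CPM in Het and 11.9 to 15 in the others (log2 fold change -1.16, SE 0.217, FDR 0.00209), and the call was lost without either library of WT or the doxorubicin library of KO embryo 1, with an FDR of up to 0.0144.

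The initiation trimer of Pol III, which opens the promoter, is formed by Polr3c, Polr3f and either Polr3g or Polr3gl. Polr3c had 31.3, 32.7, 29.7, 28.9 and 32.1 CPM in control WT, Het and KO embryos 1, 2 and 3, and 16.9, 21.3, 14.1 and 15.5 CPM with doxorubicin in WT, Het and KO embryos 1 and 2 (log2 fold change -0.91, SE 0.141, FDR 0.000807). Polr3f went from 22.7 to 24.9 CPM to 13.4 to 16.2 CPM (log2 fold change -0.70, SE 0.138, FDR 0.00278). Neither range overlapped between the treatments, and the call of Polr3f was lost without either library of WT or the doxorubicin library of KO embryo 1, with an FDR of up to 0.0167, and with library totals (FDR 0.017) and upper quartile scaling (FDR 0.0112).

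Polr3g, the form known from stem cells, was at 8.17, 11.9 and 8.99 CPM in control WT and KO embryos 1 and 2, and at 4.39 and 4.82 in control Het and KO embryo 3. With doxorubicin it was at 17, 15.4 and 14.8 CPM in WT and KO embryos 1 and 2 and at 5.75 in Het, so the treatments overlapped through Het. Its log2 fold change of 0.78 (SE 0.272, FDR 0.0373) did not pass, and it passed with the embryo as a block (0.64, FDR 0.00951), without KO embryo 3 control (FDR 0.00815) and without the 3 libraries that stood apart (0.70, FDR 0.00357). Polr3gl, the form of most tissues, was at 4.58 to 12.3 CPM in control and 5.13 to 13.3 CPM with doxorubicin (log2 fold change -0.01, SE 0.288, FDR 0.981, and 0.26, FDR 0.244, without the 3 libraries that stood apart).

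The dimer of Polr3d and Polr3e and the zinc ribbon subunit Polr3k did not pass, with log2 fold changes of -0.05, -0.18 and -0.58. Polr3k was the nearest to the threshold (39.9 to 61 CPM in control, 29.2 to 35.6 with doxorubicin, FDR 0.0217), and it passed without the 3 libraries that stood apart (-0.34, FDR 0.00827). Polr3d differed in direction between embryos, with 49.9 CPM in control and 34.7 with doxorubicin in WT, and 41.8 and 58 CPM in Het, and its log2 fold change without the 3 libraries was -0.19 (FDR 0.204). Polr3a and Polr3d (chr14:70438757-70443447) lie on the chromosome of Sall2 (chr14:52311172-52328762).

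Levels of different subunits were compared only as CPM per kb of exon, with all GENCODE exons of a gene joined. The paper states that reads were counted with an annotation from iGenomes, so counted and joined exons may differ. The order of the genes depends on these lengths and may not be that of their transcripts. In control the highest was Polr2m at 99.3 ± 4.23 CPM per kb (SD, n = 5). It was followed by Polr2d at 49.1 ± 16.7, Polr2g at 48.8 ± 12.8 and Polr2a at 38.7 ± 17, whose order differed between libraries. In WT and KO embryos 1 and 2 Polr2a had 50 to 51.9, above Polr2d (33.1 to 44.1) and Polr2g (38.5 to 40.7). In Het and KO embryo 3 it had 21.2 and 19.1, below Polr2d (59.4 and 72.8) and Polr2g (62.8 and 62.7). The lowest were Polr3g at 1.94 ± 0.791, Polr3f at 3.08 ± 0.126 and Polr2c at 3.8 ± 0.399 CPM per kb. With doxorubicin Polr2a came first at 143 ± 42 CPM per kb (SD, n = 4), before Polr2g at 66 ± 8.63 and Polr2m at 53 ± 3.44, and Polr1b came last at 0.978 ± 0.554.

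Within Pol II, the ratio of Polr2a to Polr2b per length was 1.68 to 2.16 in the 5 control libraries and 4.82 to 6.25 in the 4 doxorubicin libraries. Across the enzymes, Polr2a per length was 4.37 to 5.7 times Polr1a in control and 38.9 to 74.9 times with doxorubicin, and 3.45 to 8.36 times Polr3a in control and 28.4 to 63 times with doxorubicin. The ranges of these 3 ratios did not overlap between the treatments. The size of each ratio depends on the exon lengths used, but whether the ranges overlap does not. The ratio of Polr1a to Polr1b was 1.05 to 1.48 in control and 2.99 to 4.37 in the doxorubicin libraries of WT and KO, but 1.2 in Het with doxorubicin. That of Polr3a to Polr3b was 1.01 to 1.54 in control and 1.11 to 1.76 with doxorubicin, so this pair fell together.

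**Figure D3:**
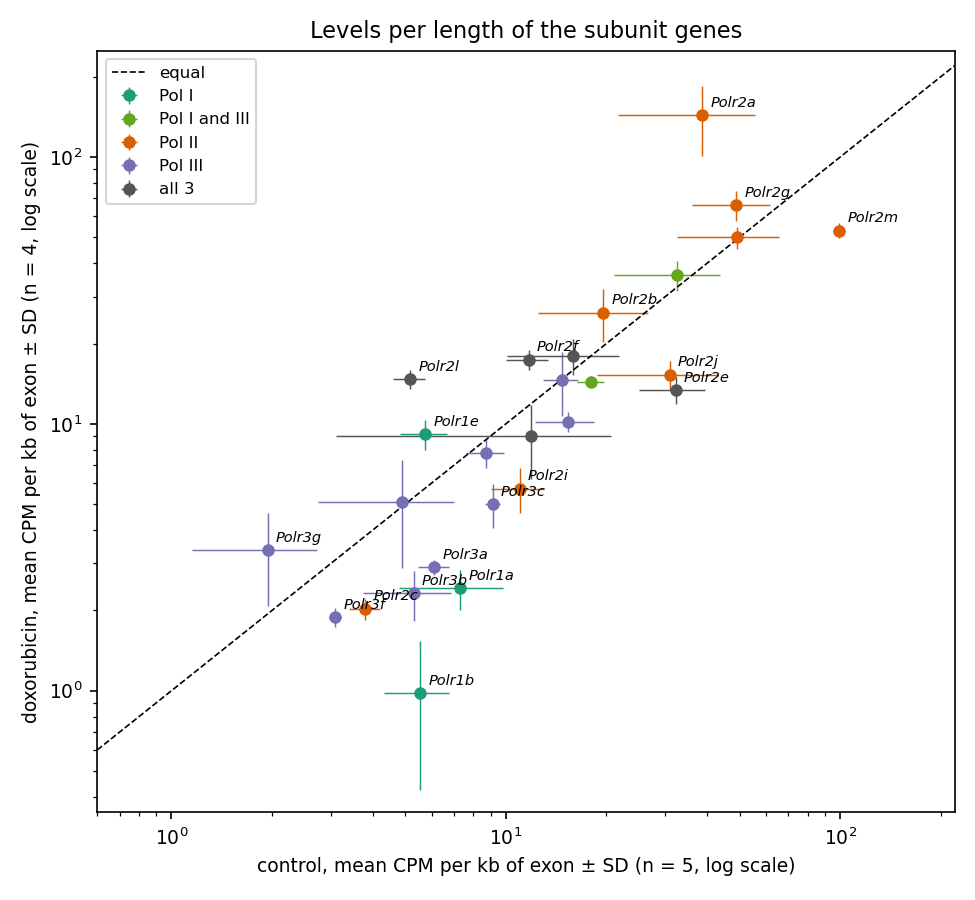
Mean CPM per kb of exon of 27 of the 28 subunit genes in control (horizontal, n = 5 libraries) and with doxorubicin (vertical, n = 4), both on log scales, with SD as bars and the line of equal levels dashed. Polr2a lies farthest above the line among the abundant genes, Polr2l above it among the scarce ones (below it, without passing, when scaled to Polr2a), and Polr1b farthest below.

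The promoters of the 2 genes that rose most and the 2 that fell most are shown as the 250 bases before the start in the RefSeq table for GRCm38.p6, 5′ to 3′ on the strand of the gene. Capitals mark matches to GGGCGG (the GC box), CCAAT (the CCAAT box), TATAAA (the TATA box) or CACGTG (the E box) on either strand, and none of the marked matches overlapped another.
Polr2a: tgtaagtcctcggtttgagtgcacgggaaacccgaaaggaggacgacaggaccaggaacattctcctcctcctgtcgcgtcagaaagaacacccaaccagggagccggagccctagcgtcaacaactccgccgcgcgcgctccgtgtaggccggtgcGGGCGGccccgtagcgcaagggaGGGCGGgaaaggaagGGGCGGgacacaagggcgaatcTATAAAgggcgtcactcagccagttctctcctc
Polr2l: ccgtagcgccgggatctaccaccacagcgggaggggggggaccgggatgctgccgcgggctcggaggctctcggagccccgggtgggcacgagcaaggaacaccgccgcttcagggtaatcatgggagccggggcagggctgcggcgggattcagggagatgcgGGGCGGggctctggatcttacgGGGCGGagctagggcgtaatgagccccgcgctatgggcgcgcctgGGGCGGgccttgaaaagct
Polr1b: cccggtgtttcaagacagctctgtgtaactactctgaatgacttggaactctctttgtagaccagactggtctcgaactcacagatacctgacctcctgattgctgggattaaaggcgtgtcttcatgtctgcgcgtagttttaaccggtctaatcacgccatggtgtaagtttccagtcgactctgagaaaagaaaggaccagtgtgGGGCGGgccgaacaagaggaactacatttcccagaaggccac
Polr1a: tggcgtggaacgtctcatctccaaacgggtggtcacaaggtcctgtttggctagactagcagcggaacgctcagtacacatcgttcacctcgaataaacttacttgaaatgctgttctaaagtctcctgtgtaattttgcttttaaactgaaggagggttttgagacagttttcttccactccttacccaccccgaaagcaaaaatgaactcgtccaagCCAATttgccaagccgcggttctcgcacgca
They lie at chr11:69758634-69758883 (minus strand), chr7:141475154-141475403 (minus), chr2:129100746-129100995 (plus) and chr6:71908803-71909052 (plus). Polr2a and Polr2l each held GGGCGG 3 times, Polr2a also TATAAA beginning 33 bases before the start, Polr1b held GGGCGG once and Polr1a CCAAT once, beginning 31 bases before the start. The table had promoters for 22 of the 28 genes, among them 4 that rose and 10 that fell. GGGCGG or CCGCCC was found for 14 of the 22 genes and in 32.7% of all 32851 promoters of this length, with 3 of the genes that rose and 6 of those that fell. CCAAT or ATTGG was found for 7 of the 22 (33.8% of all promoters), with none of the genes that rose and 5 of those that fell. CACGTG was found for 2 (6.02%) and TATAAA or TTTATA for 2 (12.4%). The subunit genes were counted by gene, and 2 of them had 2 starts, of which either could hold the match. All promoters were counted by entry and were not limited to genes tested here, so the 2 shares are not of like sets. Such matches describe the letters of these windows only.

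KO was compared with WT to ask whether loss of Sall2 moves these genes. None of the 14883 genes (0%) and none of the subunit genes passed, with both treatments in the fit. Unadjusted, 84 genes and no subunit gene had a p under 0.05 by edgeR, and DESeq2 called 3 genes and no subunit gene. The smallest unadjusted p of the set was 0.203, for Polr2h. The median log2 fold change of the subunit genes was 0.06, against 0.02 over all genes. The 95% intervals included 0 for 28 of 28 genes, and they lay within 1 log2 unit on either side for 21 of them. The narrowest was that of Polr2m, from -0.42 to 0.39, and of those with few counts that of Polr2k ran from -1.37 to 1.86. For Polr2a it ran from -1.21 to 0.69, so changes within these bounds could not be told from none. WT is 1 embryo, and its control and doxorubicin libraries were counted as separate. The intervals thus hold no spread between WT embryos and do not bound the effect of losing Sall2. In the libraries of WT and KO embryos 1 and 2, where the spread was small, Polr2a differed little in control (353 to 367 CPM).

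Het was compared with WT in the same fit. Again none of the 14883 genes (0%) passed by edgeR, where 3445 had an unadjusted p under 0.05, and DESeq2 called 170, none of them a subunit gene. Of the subunit genes, 3 had an unadjusted p under 0.05, and these were Polr3g (log2 fold change -1.23, p = 0.0168), Polr2a (-1.17, p = 0.0314) and Polr2b (-0.89, p = 0.0345). These 3 passed when KO embryo 3 control was left out (FDR 0.00498, 0.0013 and 0.00217), as did 2923 of 14735 genes (19.8%). Het is 1 embryo, and its libraries are among those that stood apart.

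The interaction of treatment and genotype asks whether doxorubicin moved a gene by a different amount. Between KO and WT none of the genes (0%) and none of the subunit genes passed by edgeR, 38 genes had an unadjusted p under 0.05, and DESeq2 called none. Between Het and WT, a test added after the data were seen, again none passed (270 genes with an unadjusted p under 0.05), and the subunit gene with the smallest unadjusted p was Polr1b, at 0.0227 and with an FDR of 1. With the embryo as a block, 779 of 14735 genes (5.29%) passed between Het and WT, and Polr1b was the 1 subunit gene among them. Its interaction was 1.93 on the log2 scale (SE 0.316, FDR 0.000692), as the log2 change with doxorubicin was -1.25 in Het and -3.16, -3.26 and -3.08 in WT and KO embryos 1 and 2. In this fit the spread comes from the difference between 2 KO embryos and from the other genes, and Het is 1 embryo.

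The control libraries of Het and KO embryo 3 did not overlap with those of WT and KO embryos 1 and 2 for 25 of the 28 subunit genes, where 75% of all genes did so. Both were lower for 9 subunit genes (36.8% of all genes) and higher for 16 (38.2% of all genes). The largest differences were in Polr2k (1.93 higher on the log2 scale), Polr3gl (1.07 higher) and Polr2j (0.99 higher), and in Polr2a (-1.34), Polr2b (-1.05), Polr3g (-1.04) and Polr1a (-1.0). The catalytic subunits of all 3 enzymes were thus among the lower genes (Polr1b -0.60, Polr3b -0.83 and Polr3a -0.26), and 4 of the 5 common subunits among the higher. Per length, Polr3gl stood at 5.37 and 6.91 times Polr3g in KO embryo 3 and Het, and at 0.949 to 1.73 times in the other controls. With doxorubicin this ratio was 5.7 in Het and 0.821 to 1.15 in the others.

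**Figure D4:**
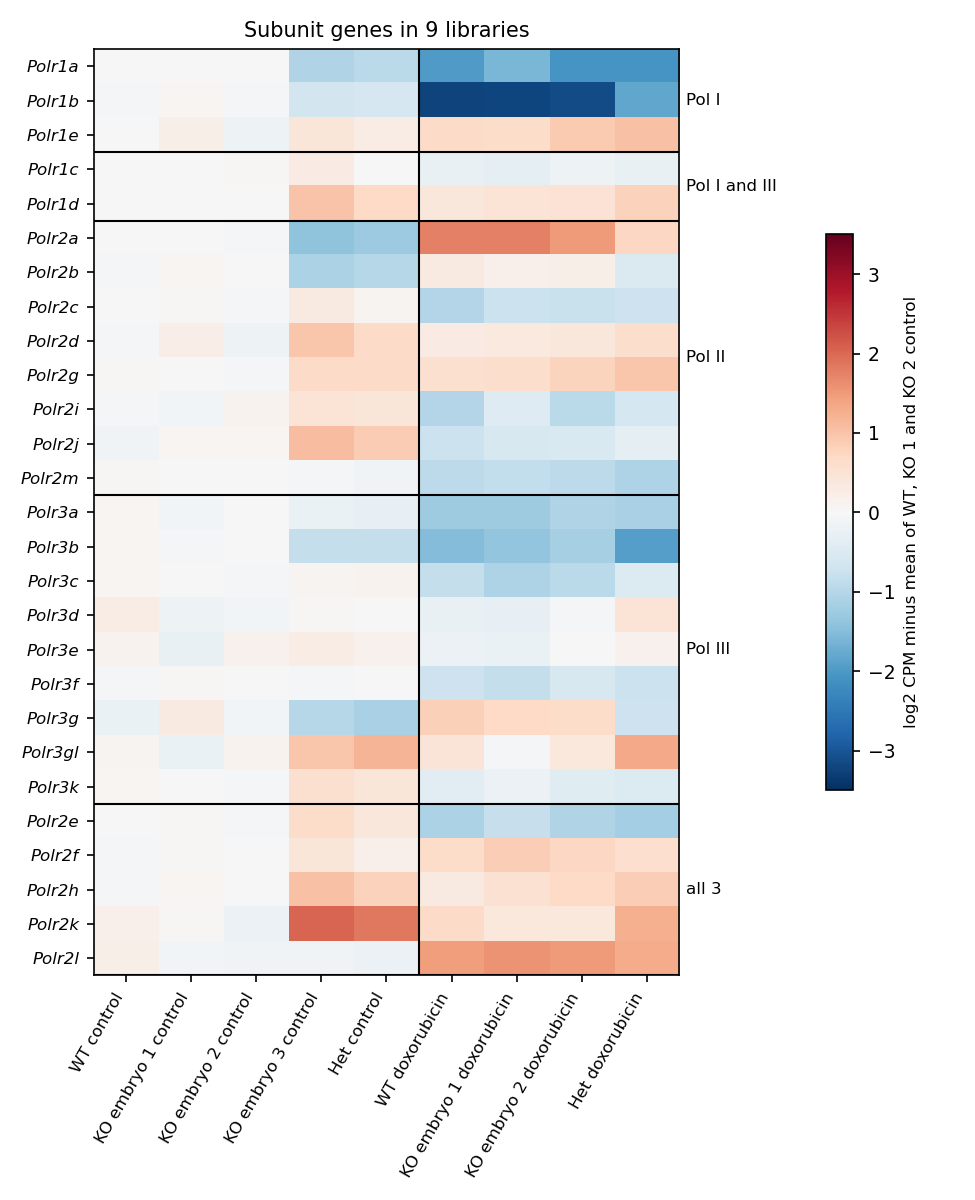
Log2 CPM of 27 of the 28 subunit genes (rows, by polymerase) in 9 libraries (columns), minus the mean of the WT, KO embryo 1 and KO embryo 2 control libraries of the same gene (red higher, blue lower). Het and KO embryo 3 control share a pattern that the other controls lack, with Polr2k highest and Polr2a lowest, and the doxorubicin columns show, with TMM scaling, the rise of Polr2a and Polr2l (Polr2l is lower, without passing, when scaled to Polr2a) and the fall of Polr1b.

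These differences ran with the length of the genes, which reached from 624 bases of exon for Polr2k to 11871 for Polr1a. Across the 28 subunit genes, which share the same libraries, Spearman's rho between exon length and the difference of the control libraries was -0.73. Across 14204 genes with a length it was -0.245, and the median difference fell from 0.42 in the shortest of 4 equal groups (up to 2722 bases) to -0.25 in the longest (from 6754 bases). For the change with doxorubicin, rho was -0.187 across the subunit genes and -0.193 across all genes, and in WT and KO embryos 1 and 2 only it was -0.334 and -0.261. For the difference of Het with doxorubicin from the other doxorubicin libraries it was -0.382 across the subunit genes and -0.0539 across all genes, where the medians of the 4 length groups were 0.16, -0.07, -0.05 and 0.06 from the shortest to the longest. Whether RNA quality or library preparation took part was not tested.

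**Figure D5:**
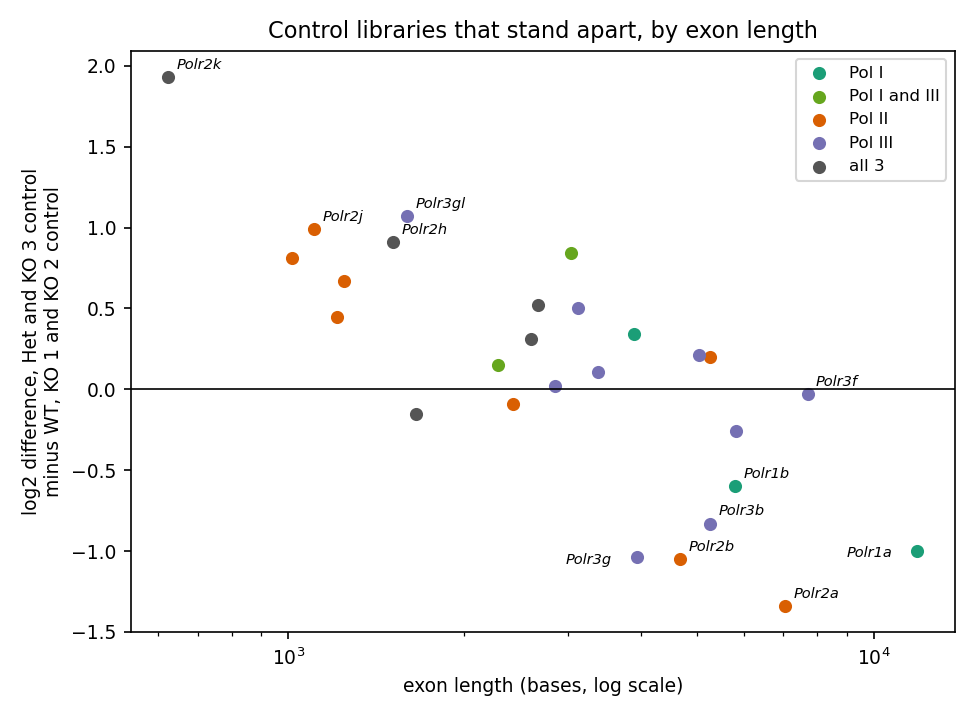
Difference in log2 CPM between the control libraries of Het and KO embryo 3 (mean) and those of WT and KO embryos 1 and 2 (mean) for 27 of the 28 subunit genes, against exon length in bases on a log scale, coloured by polymerase. The short gene Polr2k is at 1.93 and the long genes Polr2a and Polr1a at -1.34 and -1.0.

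Of the subunits under other symbols, Cd3eap, the partner of Polr1e in its dimer, rose from 18.7 ± 1.21 to 31.4 ± 1.78 CPM (SD, n = 5 and n = 4), with a log2 fold change of 0.74 (FDR 0.00148). Znrd1, the zinc ribbon subunit of Pol I, fell from 14.9 ± 1.01 to 6.36 ± 0.464 CPM (-1.23, FDR 0.000372). Twistnb, of the Pol I stalk, and Crcp, of the Pol III stalk, did not pass (log2 fold changes 0.02 and -0.26). In Pol I, with TMM scaling and all 9 libraries, the dimer genes Polr1e and Cd3eap thus rose while the catalytic genes and Znrd1 fell. The call of Polr1e was lost when any 1 of 8 of the 9 libraries was left out. Overlap with genes on the opposite strand was not examined for Cd3eap and Znrd1.

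The factors that work with the polymerases were counted in the same fit, where 21.9% of all genes rose and 20.2% fell. Of 8 initiation and termination factors of Pol I, 3 fell (37.5%) and none rose, among them Taf1d (log2 fold change -2.05, FDR 0.00714) and Ttf1, which ends ribosomal RNA transcription (-1.55, FDR 0.00113). Of 33 general initiation factors of Pol II, 12 fell (36.4%) and 3 rose (9.09%), with the TFIIH genes Gtf2h3 (-2.14, FDR 5.65e-05) and Gtf2h4 (-1.78, FDR 0.000515) and the TFIID genes Taf4b (2.65, FDR 5.97e-05) and Taf13 (1.17, FDR 0.0014) at the ends. Of 31 genes of pausing, elongation and C-terminal domain enzymes, 7 fell (22.6%, near the share of all genes) and 2 rose (6.45%). Hexim1, an inhibitor of the elongation kinase P-TEFb, rose from 35.1 ± 8.12 to 119 ± 8.48 CPM (SD, n = 5 and n = 4; 1.77, FDR 0.000143), and Leo1 of the PAF complex rose (0.80, FDR 0.00549), while Cdc73 of the same complex (-2.25, FDR 9.93e-05) and Nelfa, of the pausing factor NELF, (-2.12, FDR 0.000135) fell.

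Of 30 Mediator subunits 9 fell (30%), led by Med23 (-2.23, FDR 0.000176) and Med8 (-1.81, FDR 0.000125), and 1 rose (3.33%), Med29 (0.91, FDR 0.00309). Of 16 Pol III initiation factors and their repressor Maf1, 4 fell (25%, near the share of all genes) and none rose, led by Gtf3c3 (-1.44, FDR 0.000105) and Snapc3 (-1.40, FDR 0.00131). Of 12 assembly and import factors 4 fell (33.3%) and 1 rose (8.33%), with Uri1 (-1.82, FDR 3.59e-05), Rpap2 (-1.41, FDR 0.00268) and Gpn3 (1.04, FDR 0.00273). The medians of these lists lay between -0.87 for the Pol I factors and -0.30 for the elongation genes, against -0.02 over all genes. Without the 3 libraries that stood apart, 32.4% of all genes fell and 35.4% rose. Falls and rises were then 5 and 1 of 8 for Pol I, and 15 and 9 of 33 for Pol II initiation. They were 15 and 6 of 31 for elongation and 12 and 6 of 30 for Mediator. For Pol III they were 9 and 3 of 16, and for assembly and import 6 and 3 of 12.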

How the data were processed

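RNA was depleted of ribosomal RNA and prepared with a stranded kit. The authors merged 4 FASTQ files per sample, aligned reads to mm10 with HISAT2 (version 2.1.0 in the submitters' processing notes) and assigned them to genes by HTSeq's union mode. The deposited counts are whole numbers without normalization. The strand setting is not given in the sources used here, so genes that overlap on opposite strands are uncertain (9 of the 28). Among them are Polr1e, Polr2b, Polr2c, Polr2f, Polr2h, Polr2i, Polr2j and Polr3gl. Groups follow the labels. The table has 10 libraries. The doxorubicin libraries of KO embryos 2 and 3 hold the same count for each of 24062 genes and were counted as 1, leaving 9. Which of these embryos the values come from is not given, and they were named KO embryo 2, whose control library, like them, had no count of the Y-linked Ddx3y (Xist 331 and 191 CPM), where the control of KO embryo 3 had 82.6 CPM (Xist 1.4 CPM). The pairs, the block and the changes within KO embryo 2 rest on this choice.

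The tests were run with edgeR 4.0.16 under R 4.3.3 (TMM, filterByExpr by treatment, the two-sided quasi-likelihood test, Benjamini-Hochberg adjustment over all genes tested, FDR under 0.01), with genotype and treatment as terms. Standard errors are the log2 fold change divided by the square root of F, and 95% intervals use 5 residual degrees of freedom. CPM within single embryos used a prior count of 2. Positions and exon lengths come from GENCODE vM21 and promoters from the RefSeq table. Limits from depth cover counting error only, and since reads are without molecular identifiers they are not independent molecules. P-values measure the spread between these libraries. The scripts were tested on simulated data.

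The members and the gene lists were chosen with earlier results of these data known. Of the 28 members 27 are named, and 1 enters the counts and medians but is not reported here by name. Of each other list the text names up to 2 genes with the largest rise and 2 with the largest fall among those past the threshold at 1 CPM or more, with Twistnb and Crcp added after their values were seen. The labels give the same number to libraries of the same embryo in both treatments. The deviations of these pairs from the treatment means correlated at 0.521 to 0.742. Those of different embryos correlated at -0.58 to 0.437, and at 0.268 to 0.437 among WT and KO embryos 1 and 2. The embryo was also used as a replicate block. Alternatives were DESeq2 1.42.0, library totals without TMM, upper quartile scaling, library sizes without Rn45s, scaling to Polr2a, RUVg with 1 factor, every gene with at least 1 count, an FDR of 0.05 or 0.001, edgeR's exact test, fewer libraries, and leaving out each library. The interaction between Het and WT and the comparison with gene length were added after the data were seen.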

Additional observations from a re-analysis of the deposited data

Results flagged for a closer look

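Among the 56 groups of libraries tested for a single distant value (28 subunit genes in each treatment), 3 held one, where chance gives about 1 in 20. Polr1b was at 10.5 CPM in Het with doxorubicin, while the other 3 doxorubicin libraries had 3.98 to 4.22 CPM. Polr1c was at 47.7 CPM in KO embryo 3 control, where the other controls had 38.5 to 40.5 CPM. Polr2l was at 10.2 CPM in WT control, where the other controls had 7.74 to 8.3 CPM. The change of Polr1b with doxorubicin also differed between Het and WT with the embryo as a block, by 1.93 on the log2 scale (edgeR FDR 0.000692), and without the block the FDR of this difference was 1. Het is 1 embryo, and its libraries stood apart from those of WT, so genotype, embryo and library cannot be told apart here.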

How the results depend on the processing

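The 4 rises and 11 falls of subunit genes (3262 and 3004 over all genes) became 8 and 12 (5177 and 4745) in WT and KO embryos 1 and 2 only, 7 and 14 (4898 and 4618) with RUVg, 2 and 7 (3077 and 2458) with library totals without TMM, 2 and 11 (3685 and 3187) with every gene of at least 1 count, 4 and 8 (3732 and 2416) with upper quartile scaling, 4 and 10 (3249 and 2994) with library sizes without Rn45s, 2 and 5 (1898 and 1495) at an FDR under 0.001, and 1 and 1 (1201 and 710) in the 5 KO libraries. Scaled to Polr2a they became 0 and 19 (498 and 9316, so that 5.07% of the calls were higher, against 52.1%), with log2 fold changes of -1.46 for Polr1e, -1.50 for Polr2b, -2.15 for Polr2d, -1.55 for Polr2f, -0.56 for Polr2l and -1.17 for Polr3g. This scaling holds Polr2a constant, where TMM scaling gave it a rise, and Polr1e, Polr2f and Polr2l did not pass there. Which scaling is nearer to the levels per cell was not tested. The median over all genes was 0.14 with upper quartile scaling and 0.23 with every gene of at least 1 count, against -0.02. With 1 library left out at a time, subunit genes higher were 2 to 7 and lower 6 to 11, and all genes higher 2196 to 4645 and lower 1842 to 4326, with the most genes in each direction without KO embryo 3 control. With the embryo as a replicate block, subunit genes were 6 and 11, and the 2 added were Polr2g and Polr3g.

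For KO against WT, the 0 genes became 3 with DESeq2, 2 with RUVg, 3 in WT and KO embryos 1 and 2 only, and 0 to 1 with 1 library left out, with 0 subunit genes in each. For Het against WT, the 0 genes became 170 with DESeq2, 1 with RUVg, 1 with every gene of at least 1 count, 1 at an FDR under 0.05, and 0 to 2923 with 1 library left out, of which 0 to 3 were subunit genes. With the replicate block, the interaction gave 2 genes for KO against WT and 779 for Het against WT, 1 of them a subunit gene, and without the block and with 1 library left out the latter gave 0 to 21. Apart from the number of genes or libraries in the alternative's own construction, the cause of these changes was not tested. The block rested on 8 libraries and left out KO embryo 3. The lowest count of a subunit gene in a library was 54.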
